A study of Mus musculus with 3 samples.

Results

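The genes of chromatin remodelling, histone modification and DNA methylation were examined for peaks of lysine homocysteinylation in chromatin of mouse neural stem cells. A list of 46 genes, chosen by name for these functions, was taken out of 22367 protein-coding genes, and all 46 were found in the annotation. The list holds Cecr2, Smarca4 and Dnmt3b, which the study singled out for their H3K79Hcy peaks, so these 3 genes had to hold such peaks. Homocysteine (Hcy) can be attached to lysine residues through its thiolactone (HTL), and H3K79Hcy is this modification at lysine 79 of histone H3. The cells were NE4C, an established mouse neural stem cell line, grown without added HTL, and all libraries come from this line in this state. Their cross-linked chromatin was immunoprecipitated with an antibody to H3K79Hcy, with an antibody to homocysteinylated lysine in general (KHcy), and with an antibody to H3K4me3, the methyl mark found at the starts of active genes. There was 1 library per antibody, so no value below has a replicate check, no p-value is given, and a difference between antibodies cannot be told apart from a difference between libraries. The input, the normal IgG control and HTL-treated cells are not analysed here.

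Genes of this kind set how tightly DNA is packed. Remodellers of the SWI/SNF, ISWI, CHD and INO80 families move or eject nucleosomes with energy from ATP. Acetyltransferases, deacetylases, methyltransferases and demethylases write and erase marks on histone tails, readers such as the bromodomain proteins bind them, and DNMT and TET enzymes add and oxidise methyl groups on DNA. Several are needed for closure of the neural tube or for the choice between renewal and differentiation in neural progenitors.

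Sequences of peaks on which the results turn are shown first, as the central 300 bases of the peak in the mouse genome mm9, written 5' to 3' on the strand of the gene with CpG dinucleotides in capitals. Cecr2, Smarca4 and Dnmt3b are shown because the study chose them, Bptf because its peak had the largest fold over background of all H3K79Hcy peaks in the listed genes, and Nsd1 because its peak stood alone in its chromosomal stretch. For Cecr2, which held several H3K79Hcy peaks, the one of largest fold is given, and its KHcy peak of largest fold, which overlapped a coding exon, is set beside it.
Cecr2 H3K79Hcy, chr6:120694451-120694750, plus strand: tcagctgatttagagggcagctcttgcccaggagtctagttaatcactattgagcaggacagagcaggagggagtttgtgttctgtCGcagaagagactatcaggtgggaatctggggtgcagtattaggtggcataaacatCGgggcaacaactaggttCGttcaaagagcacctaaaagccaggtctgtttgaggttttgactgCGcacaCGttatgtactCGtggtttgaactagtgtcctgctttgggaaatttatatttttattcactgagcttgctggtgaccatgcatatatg
Smarca4 H3K79Hcy, chr9:21463851-21464150, plus strand: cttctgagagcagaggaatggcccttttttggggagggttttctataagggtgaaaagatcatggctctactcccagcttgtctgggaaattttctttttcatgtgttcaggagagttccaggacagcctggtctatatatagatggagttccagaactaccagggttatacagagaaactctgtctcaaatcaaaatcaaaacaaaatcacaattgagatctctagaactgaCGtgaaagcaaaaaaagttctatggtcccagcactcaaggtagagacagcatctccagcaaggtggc
Dnmt3b H3K79Hcy, chr2:153497351-153497650, plus strand: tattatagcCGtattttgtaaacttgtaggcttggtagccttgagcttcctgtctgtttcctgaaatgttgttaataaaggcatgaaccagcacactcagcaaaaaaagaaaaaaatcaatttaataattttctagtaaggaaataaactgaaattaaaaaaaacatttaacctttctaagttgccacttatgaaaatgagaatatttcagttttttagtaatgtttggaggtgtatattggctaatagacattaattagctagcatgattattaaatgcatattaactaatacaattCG
Bptf H3K79Hcy, chr11:106914451-106914750, minus strand: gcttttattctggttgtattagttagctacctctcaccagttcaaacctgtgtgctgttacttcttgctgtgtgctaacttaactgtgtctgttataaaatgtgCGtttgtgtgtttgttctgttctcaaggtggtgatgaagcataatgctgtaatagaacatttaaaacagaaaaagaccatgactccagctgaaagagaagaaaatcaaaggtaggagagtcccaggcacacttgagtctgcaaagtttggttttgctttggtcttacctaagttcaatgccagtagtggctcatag
Nsd1 H3K79Hcy, chr13:55399151-55399450, plus strand: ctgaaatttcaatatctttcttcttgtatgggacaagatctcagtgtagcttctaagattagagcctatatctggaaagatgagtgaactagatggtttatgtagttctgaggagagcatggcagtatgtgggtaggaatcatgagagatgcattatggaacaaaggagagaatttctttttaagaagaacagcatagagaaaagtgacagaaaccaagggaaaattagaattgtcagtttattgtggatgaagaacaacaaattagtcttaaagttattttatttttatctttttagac
Cecr2 KHcy, chr6:120684551-120684850, plus strand: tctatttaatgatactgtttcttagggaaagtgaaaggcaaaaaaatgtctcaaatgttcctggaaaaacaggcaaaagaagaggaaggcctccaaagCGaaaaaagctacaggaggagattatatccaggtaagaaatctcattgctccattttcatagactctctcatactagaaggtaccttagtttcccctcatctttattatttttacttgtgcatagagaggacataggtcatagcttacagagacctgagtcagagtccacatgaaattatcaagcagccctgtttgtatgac
The Cecr2 H3K79Hcy stretch held 6 CpG and the Bptf, Smarca4 and Cecr2 KHcy stretches 1 each, while the Nsd1 stretch held 0. GC content ran from 28.7% in the Dnmt3b stretch to 46% in that of the Cecr2 H3K79Hcy peak.

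H3K79Hcy peaks were found in the bodies of 14 of the 46 listed genes, and in 17 when 10 kb on each side was added. KHcy peaks were found in 13 bodies (15 with 10 kb added) and H3K4me3 peaks in 16 (20 with 10 kb added). In percent, 30.4% of the listed genes held H3K79Hcy in the body, against 7.80% of all protein-coding genes, and 37.0% held it within 10 kb, against 11.1%. The same shares were 28.3% against 9.25% and 32.6% against 13.1% for KHcy, and 34.8% against 19.7% and 43.5% against 29.4% for H3K4me3. The listed genes were therefore more often occupied than genes at large in each list, but they were also longer, with a median of 75.6 kb (10.3 to 481 kb) against 15.4 kb, and the comparison at equal length follows below. In total, 26 H3K79Hcy, 35 KHcy and 19 H3K4me3 peaks overlapped the bodies of these genes.

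**Figure D1:**
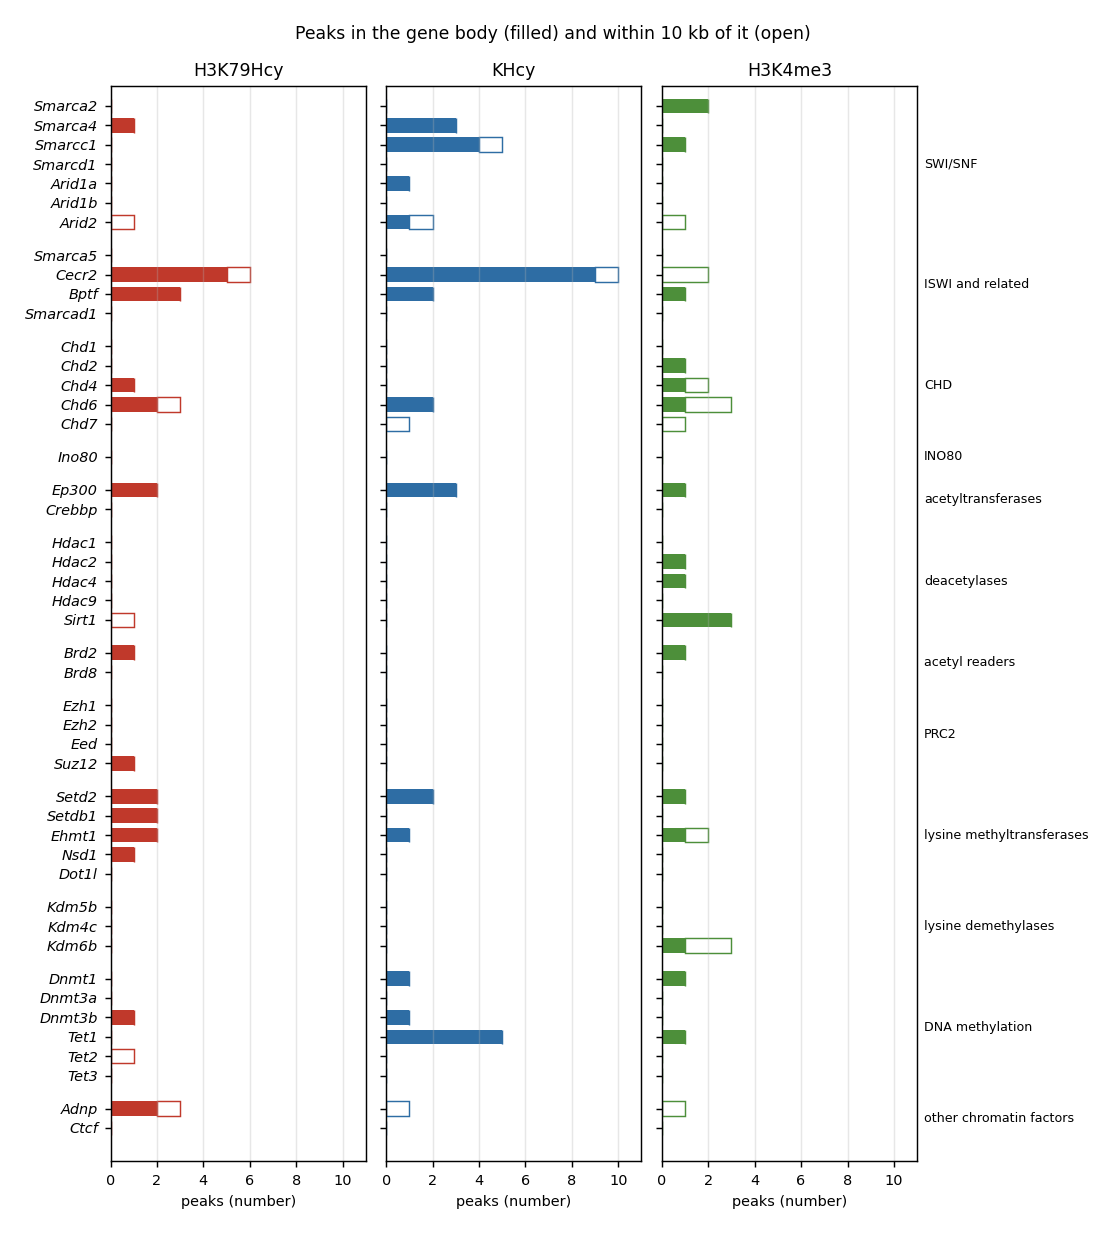
Number of peaks in the body of each of the 46 listed genes (filled bars) and in addition within 10 kb of it (open bars), for H3K79Hcy, KHcy and H3K4me3, with 1 library each and the genes grouped by role. Cecr2 held the most peaks for H3K79Hcy (5 in the body) and for KHcy (9), while Sirt1 held the most for H3K4me3 (3).

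The genes were grouped by the lists that had a peak in the gene body, without the 10 kb on each side. Peaks of all 3 lists were found in Bptf, Chd6, Ep300, Setd2 and Ehmt1. H3K79Hcy and KHcy without H3K4me3 were found in the bodies of Smarca4, Cecr2 and Dnmt3b, the 3 genes that the study chose. Cecr2 did have 2 H3K4me3 peaks within 10 kb. The nearer lay 0.987 kb upstream of its start, with 22 reads and 3.98 times the reads of the background. H3K79Hcy was alone in the bodies of Suz12, Setdb1, Nsd1 and Adnp, and came with H3K4me3 in Chd4 and Brd2. Adnp also had 1 KHcy and 1 H3K4me3 peak within 10 kb. KHcy was found without H3K79Hcy in Smarcc1, Dnmt1, Tet1, Arid1a and Arid2. H3K4me3 alone was found in Smarca2, Chd2, Hdac2, Hdac4, Sirt1 and Kdm6b. The other 21 genes held no peak in the body, and 19 of them none within 10 kb either. Over all genes, only the combination of H3K79Hcy with KHcy was counted, as given below, so the other combinations have no share to be read against.

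Peaks are described by their reads and by their fold, which is the number of reads in the peak relative to what the library's background gives over that width. The background was 1.59 reads per window of 200 bp for H3K79Hcy, 1.49 for KHcy and 1.38 for H3K4me3. Intervals are exact 95% Poisson intervals of the read count, and they cover counting error only. Most of these peaks rest on few reads: the median was 22 reads for H3K79Hcy (15 to 36), 33 for KHcy (23 to 65) and 30.0 for H3K4me3 (21 to 86). A peak is said to pass the stricter score if its score exceeded the lowest of its list by the natural log of 100.

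Among the ISWI-related genes, Cecr2 and Bptf were rich in peaks while Smarca5 and Smarcad1 held none. Cecr2, a subunit of an ISWI remodelling complex with a known role in neural tube closure, lies on chr6:120616387-120721208. Its 5 H3K79Hcy peaks, all in introns, had 24, 19, 17, 23 and 21 reads from the start of the gene to its end. They were centred 13.1, 59.6, 64.1, 78.2 and 82.3 kb from the start, so 4 of the 5 lay past the middle of the gene. Their folds ran from 2.15 (1.38 to 3.20) to 3.61 (2.29 to 5.42), and these intervals overlap. The peak shown above was the one of largest fold, and it alone passed the stricter score. A further H3K79Hcy peak lay 109 kb from the start, past the end of the gene and over Slc25a18 as well as the flank of Cecr2. The 9 KHcy peaks of Cecr2 were spread from 13.5 to 105 kb, with folds of 2.16 to 2.60, and the last covered the gene end. Only 1 H3K79Hcy peak of the gene overlapped a KHcy peak, at 13.1 kb, although 2 others lay 0.6 and 1.0 kb from one. Of 1220 genes of similar length, 0.82% held at least as many H3K79Hcy peaks and 0.246% at least as many KHcy peaks. The 5 Mb stretch of chromosome 6 around it was itself dense, with 90 H3K79Hcy and 115 KHcy peaks.

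Bptf, the largest subunit of the nucleosome remodelling factor NURF, held 3 H3K79Hcy peaks, and each overlapped a coding exon. The peak at chr11:106914401-106914800 was only 400 bp wide and held 15 reads, which gave a fold of 4.71 (2.64 to 7.77). This was the largest fold of the 26 H3K79Hcy peaks, and 95.9% of the peaks of the whole list had a lower one. Its neighbours, of 22 and 20 reads, had folds of 3.45 (2.16 to 5.23) and 2.51 (1.53 to 3.88), so that the intervals of the 3 overlap. The peak of 22 reads passed the stricter score, whereas the one of 15 reads did not. An H3K4me3 peak of 50 reads (3.02-fold) was centred 2.24 kb inside the start, and a KHcy peak of 39 reads (2.02-fold) covered the gene end. Another KHcy peak of 35 reads (2.14-fold) lay at 74.5% of the length of the gene, 3.80 kb from an H3K79Hcy peak. At least 3 H3K79Hcy peaks were found in 3.03% of genes of similar length.

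Of the 7 SWI/SNF genes, 1 held H3K79Hcy and 4 held KHcy, where genes of their lengths gave 1.49 and 1.6. Smarca4, which encodes the ATPase BRG1, held a single H3K79Hcy peak at chr9:21463601-21464400, in an intron 43.4 kb from the start. This peak had 21 reads and a fold of 3.30 (2.04 to 5.04). Genes of similar length held at least 1 such peak in 19.4% of cases, so a single peak is common in a gene of 88.1 kb. Its 3 KHcy peaks, of 29, 31 and 29 reads, each overlapped a coding exon, and the nearest was 7.40 kb from the H3K79Hcy peak. No H3K4me3 peak was found in Smarca4 or within 10 kb of it. Smarcc1, a core subunit known as BAF155, held 4 KHcy peaks with 28, 29, 31 and 31 reads from near its middle onward (47.8 to 84.4% of the gene), and 1 H3K4me3 peak of 41 reads 1.36 kb inside its start. Arid1a and Arid2, DNA-binding subunits of the BAF and PBAF complexes, held 1 KHcy peak each. That of Arid2 had the most reads of all KHcy peaks in the listed genes (65 reads over 3800 bp, 2.30-fold) and covered the gene end. Smarca2, the ATPase BRM, held 2 H3K4me3 peaks only, and Smarcd1 and Arid1b held none of any list.

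In the CHD family of remodellers, H3K79Hcy was found in Chd4 and Chd6 and in none of Chd1, Chd2 and Chd7. Chd4, the ATPase of the NuRD complex, held 1 H3K79Hcy peak of 30 reads (2.35-fold, 1.59 to 3.36) over a coding exon 28.4 kb from the start of a gene of 34.6 kb. Its stretch held the most H3K79Hcy peaks of all stretches of listed genes, 107, and also 351 H3K4me3 peaks. Chd6 held 2 H3K79Hcy peaks in introns, with 23 and 22 reads (2.89-fold and 2.30-fold), and another lay within 10 kb past its end. Its 2 KHcy peaks lay elsewhere in the gene, at least 20.4 kb from the H3K79Hcy peaks. Chd7, mutated in CHARGE syndrome, held no peak in its 177 kb, but a KHcy and an H3K4me3 peak overlapped each other upstream of its start. Ino80, the single listed gene of the INO80 family, held no peak, and its stretch held 0 H3K79Hcy peaks.

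Of the histone acetyltransferases, Ep300 held peaks of all 3 lists and its close paralogue Crebbp held none. Ep300 encodes the acetyltransferase p300, and lies on chr15:81415781-81482507. Its H3K79Hcy peak at chr15:81416801-81417400 (17 reads, 3.56-fold, 2.07 to 5.70) was centred 1.32 kb from the start and overlapped the H3K4me3 peak of the gene (38 reads, 3.44-fold). It was the one H3K79Hcy peak of the 26 that overlapped H3K4me3. The other H3K79Hcy peak had 36 reads, the most among the 26, with a fold of 2.51 (1.76 to 3.48), and overlapped a KHcy peak of 60 reads. In all, 3 KHcy peaks lay between 38.4 and 52.3 kb from the start, each over a coding exon. At least 3 KHcy peaks were found in 2.27% of genes of similar length. Crebbp is longer, at 129 kb, and its stretch held 12 H3K79Hcy and 7 KHcy peaks, against 22 and 19 around Ep300.

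The deacetylases, which remove acetyl groups from histones, held no homocysteinylation peak in their bodies, 0 of 5 for H3K79Hcy and 0 of 5 for KHcy. Genes of their lengths gave counts of 0.937 and 1.06. H3K4me3 was found in Hdac2, Hdac4 and Sirt1. Sirt1, an NAD-dependent deacetylase, held 3 H3K4me3 peaks of 24, 40 and 42 reads from its start to its end, of which the first was centred 0.952 kb inside the start. Genes of similar length held at least 3 in 4.22% of cases. A single H3K79Hcy peak of 21 reads lay within 10 kb past the end of Sirt1, over Herc4. The single peaks of Hdac2 (1.97-fold) and Hdac4 (1.78-fold) lay far from their starts, at 25.4 and 46.5 kb. Hdac1 and Hdac9 held no peak, although Hdac9 was the longest gene of the list.

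The acetyl readers and PRC2 genes held single peaks. Brd2, a bromodomain protein of the BET family and the shortest gene of the list at 10.3 kb, held 1 H3K79Hcy peak of 21 reads (2.64-fold, 1.63 to 4.03) over an exon outside the coding part, 2.96 kb from the start. Only 2.67% of genes of similar length held such a peak. With 67.8% GC and 11 CpG per 100 bases it was the richest in GC of the 26. An H3K4me3 peak of 25 reads lay 0.8 kb away without overlap. Brd8 held no peak. Of the PRC2 genes, Suz12, a subunit needed for methylation of H3 lysine 27, held 1 H3K79Hcy peak (21 reads, 2.64-fold) over a coding exon near the end of the gene, whereas the catalytic subunits Ezh1 and Ezh2 and the reader Eed held no peak of any list.

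H3K79Hcy was found in 4 of the 5 lysine methyltransferases, with 7 peaks in total, where genes of their lengths gave a count of 0.836. Setd2, which trimethylates H3 lysine 36 in transcribed bodies, held 2, of which the one at chr9:110471401-110472600 (30 reads, 3.14-fold, 2.12 to 4.48) passed the stricter score. The other, of 20 reads, lay 0.4 kb from a KHcy peak without overlapping it. Setdb1, which trimethylates H3 lysine 9, held 2 peaks of 29 and 22 reads (2.28-fold and 2.76-fold), and 1.96% of genes of similar length held as many. Ehmt1, which dimethylates H3 lysine 9, held 2 peaks of 19 and 24 reads near the end of the gene, at 93.4 and 92.0% of its length. Nsd1, which dimethylates H3 lysine 36, held 1 peak of 22 reads (2.76-fold, 1.73 to 4.18) at chr13:55398801-55399800. This was the only H3K79Hcy peak of the 5 Mb around it, where 65 other genes lay and where no KHcy peak was found. Dot1l, the methyltransferase of H3 lysine 79, held none, and its stretch held 1. This share rests on 5 genes only, and it was not tested.

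The histone demethylases Kdm5b, Kdm4c and Kdm6b had 0 H3K79Hcy and 0 KHcy peaks, within 10 kb as well, and genes of their lengths gave counts of 0.451 and 0.484. Kdm6b, which demethylates H3 lysine 27, held 1 H3K4me3 peak of 21 reads. Of the 6 genes of DNA methylation, 1 held H3K79Hcy and 3 held KHcy, where genes of their lengths gave 0.998 and 1.17. Dnmt3b, a de novo DNA methyltransferase, held 1 H3K79Hcy peak at chr2:153497201-153497800 in an intron (17 reads, 3.56-fold, 2.07 to 5.70). Its KHcy peak, of 58 reads over 3600 bp (2.17-fold, 1.65 to 2.80), lay 14.8 kb away and covered the gene end. In 10.7% of genes of similar length at least 1 H3K79Hcy peak was found. Tet1, which oxidises methylcytosine, held 5 KHcy peaks, the second highest number after Cecr2, and 0 H3K79Hcy peaks. They had 33, 41, 23, 25 and 46 reads from the start to the end of the gene, and 4 of the 5 lay in its last part, at 70.4 to 95.3% of its length. At least 5 were found in 1.2% of genes of similar length. Dnmt1, the maintenance methyltransferase, held 1 KHcy peak of 28 reads and 1 H3K4me3 peak of 30 reads. Dnmt3a, Tet2 and Tet3 held no peak in the body, and Tet2 had 1 H3K79Hcy peak within 10 kb past its end.

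Of the 2 remaining factors, Adnp, a homeodomain protein of the ChAHP complex whose mutation causes a neurodevelopmental syndrome, held 2 H3K79Hcy peaks, and Ctcf, the insulator protein, held none. The Adnp peaks had 26 and 25 reads over 1600 bp each, and their folds of 2.04 (1.33 to 2.99) and 1.96 (1.27 to 2.90) were the lowest of the 26. Both overlapped coding exons of Adnp and also the annotated extent of Dpm1, so that they cannot be assigned to one gene. Another H3K79Hcy peak lay past the end of the gene, and a KHcy peak of 44 reads lay 2.80 kb from it. No other H3K79Hcy peak in the body of a listed gene overlapped a further protein-coding gene.

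**Figure D2:**
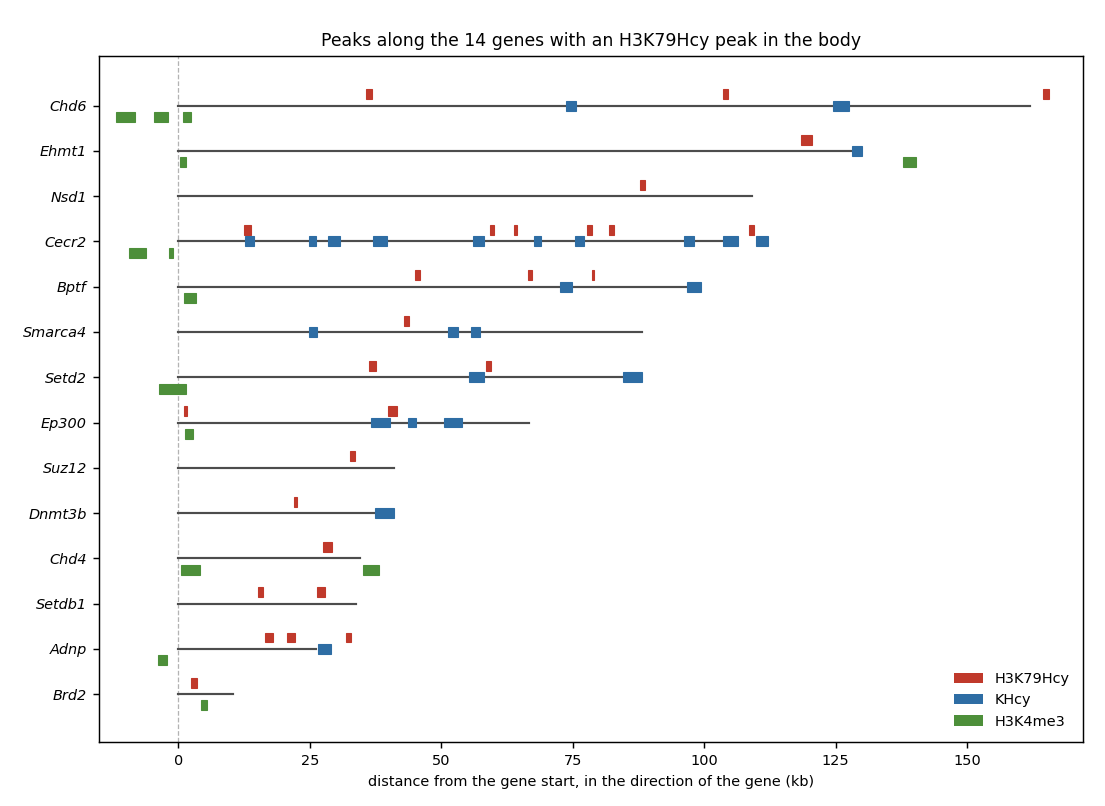
Peaks along the 14 listed genes with an H3K79Hcy peak in the body, as distance in kb from the gene start in the direction of the gene, with the gene as a line and the peaks of each list (including those within 10 kb) as blocks drawn to scale. H3K4me3 blocks lie mostly beside the starts, KHcy blocks at 5 of these gene ends (Cecr2, Bptf, Setd2, Ehmt1 and Dnmt3b), and H3K79Hcy blocks within the genes.

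Along the listed genes, H3K4me3 peaks mostly lay in other places than the peaks of H3K79Hcy and KHcy. Peaks were assigned to a coding exon if they touched one, then to another exon, and otherwise to an intron. By this rule 12 of the 26 H3K79Hcy peaks were in coding exons, 1 in another exon and 13 in introns. For KHcy the numbers were 17, 8 and 10, and for H3K4me3 8, 2 and 9. Thus an exon was touched by 50% of the peaks in the listed genes for H3K79Hcy and by 71.4% for KHcy. Over genes within the same range of length (13127 genes) these shares were 33.7% and 47.2%, and for H3K4me3 the shares were 52.6% and 45.0%. The centre lay past the middle of the gene for 18 of 26 H3K79Hcy peaks (69.2%) and 25 of 35 KHcy peaks (71.4%), against 54.9% and 54.5% over those genes. For H3K4me3 it was 2 of 19 (10.5%), against 33.8%. These measures were chosen after the peaks had been seen, several peaks come from 1 gene, and the differences were not tested. The KHcy peaks of the listed genes were also wider than those of H3K79Hcy (median 2000 bp against 1000 bp). The shares touching an exon do not allow for width.

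KHcy peaks were also found at gene ends. The annotated end of 6 of the 46 genes lay inside a KHcy peak (13.0%), namely Arid2, Bptf, Cecr2, Dnmt3b, Ehmt1 and Setd2. Over all genes the share was 1.10%, and over the 13127 genes within the range of length it was 1.24%. Gene ends were not among the measures planned, and the difference was not tested. These shares do not match the listed genes by length within that range. Nor do they allow for how often a gene held KHcy at all, 28.3% of the listed genes and 9.25% of all. All 6 peaks were broad, from 2000 to 3800 bp, and their folds were moderate, from 1.91 (1.42 to 2.51) in Setd2 to 2.30 (1.78 to 2.93) in Arid2. For H3K79Hcy and H3K4me3, 0 of the 46 ends lay inside a peak, and the shares over all genes were 0.528% and 2.05%, at which few or no ends among 46 would be covered. Of the 6 genes, 5 also held H3K79Hcy in the body, the exception being Arid2, in which an H3K79Hcy peak of 21 reads (3.30-fold) overlapped another KHcy peak just past the end, 121 kb from the start.

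**Figure D3:**
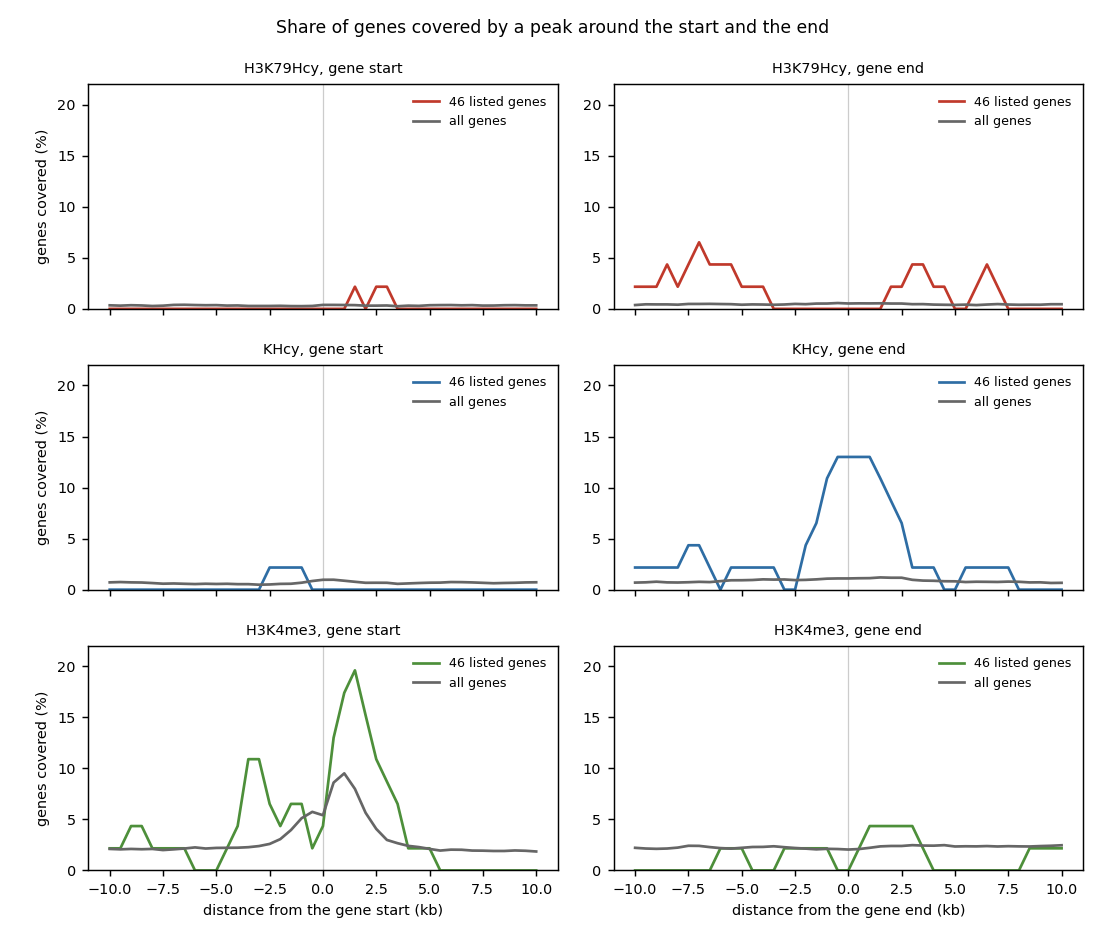
Percent of genes covered by a peak at distances from -10 to 10 kb from the gene start (left) and the gene end (right), in the direction of the gene, for the 46 listed genes (coloured) and all protein-coding genes (grey). For the listed genes, KHcy reached 13.0% at the end, and H3K4me3 reached 19.6% at 1.5 kb inside the start while falling to 4.35% at the start itself; 1 gene is 2.17%.

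Where an H3K4me3 peak was found near a start, it mostly lay beside the start rather than on it. The start itself lay inside an H3K4me3 peak for 2 of the 46 genes, Smarca2 and Setd2 (4.35%, against 5.41% of all genes). The Setd2 peak was the widest and the one with most reads of the 19 (5200 bp, 86 reads, 2.40-fold, 1.92 to 2.96). Smarca2 had 29 reads over 1200 bp (3.50-fold, 2.34 to 5.03), the largest fold of the 19, in the peak over its start. No start lay inside an H3K79Hcy or a KHcy peak, against 0.389% and 0.970% of all genes. When peaks within 3 kb were counted, a distance chosen after the peaks had been seen, 16 of the 46 genes had H3K4me3. The share over all genes was not computed at this distance. Of the 16 genes, 9 had the nearest peak inside the gene (Bptf, Chd2, Chd4, Chd6, Dnmt1, Ehmt1, Ep300, Sirt1 and Smarcc1) and 5 had it upstream (Adnp, Arid2, Cecr2, Chd7 and Kdm6b). In the profile of all genes the coverage was likewise lower at the start (5.41%) than 1.0 kb inside it (9.51%). Within 1 kb of the start, an H3K4me3 peak was found for 10 of the 46 genes and for only 13.6% of all genes. Lack of a peak in this list therefore does not show that the mark was absent.

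The base composition of these places differed. The 14 peaks that lay beside a start had a median GC content of 42.8%, whereas the 1 kb around those 14 starts had a median of 67%. Over all 46 listed genes, with or without a peak, the median GC content fell likewise from 69.0% at the start to 43.6% at 1.5 kb inside it. The starts of the 46 genes were GC-rich as a whole, with a median of 66.2% against 54.8% over all genes, and 27 of the 46 fell in the highest of 4 groups of all genes by GC at the start. In that group 6.39% of all starts were inside an H3K4me3 peak, compared with 7.61% in the next, 5.19% in the one after and 2.50% in the lowest. The part of base composition in the position of these peaks was not tested. The centre of the upstream H3K4me3 peak of Chd7 (28 reads, 3.38-fold) is shown as an example of such a peak, again with CpG in capitals.
Chd7 H3K4me3, chr4:8616251-8616550, plus strand: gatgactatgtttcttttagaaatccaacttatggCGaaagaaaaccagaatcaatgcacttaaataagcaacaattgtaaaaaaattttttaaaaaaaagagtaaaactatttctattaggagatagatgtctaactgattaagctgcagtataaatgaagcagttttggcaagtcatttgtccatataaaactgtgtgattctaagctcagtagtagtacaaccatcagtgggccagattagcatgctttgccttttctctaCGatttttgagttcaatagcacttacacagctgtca
These 300 bases held 2 CpG, with a GC content of 33%.

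The listed genes were next compared with genes of similar length, those at most 25% longer, or shorter by the same factor, because longer genes hold more peaks. Among all genes the share with an H3K79Hcy peak rose from 0.697% in the shortest of 12 groups by length to 30.4% in the longest. If each listed gene had held peaks as often as genes of its length, 7.70 of the 46 would have had H3K79Hcy, and 14 did (1.82 times). For KHcy the count from length was 8.75 and the count found 13 (1.48 times), and for H3K4me3 they were 13.5 and 16 (1.19 times). The number of peaks went the other way for H3K4me3, with 19 found against 29.4 from length, while it was 26 against 13.8 for H3K79Hcy and 35 against 16.3 for KHcy. Without Cecr2, Smarca4 and Dnmt3b, which the study chose, 11 of 43 genes had H3K79Hcy against 7.18 from length (1.53 times), and 10 had KHcy against 8.15 (1.23 times). These are counts over a list chosen with results known, and no test was made of them. Length did not separate the genes within the list: the 14 with H3K79Hcy had a median of 76.4 kb and the 32 without had 75.6 kb.

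**Figure D4:**
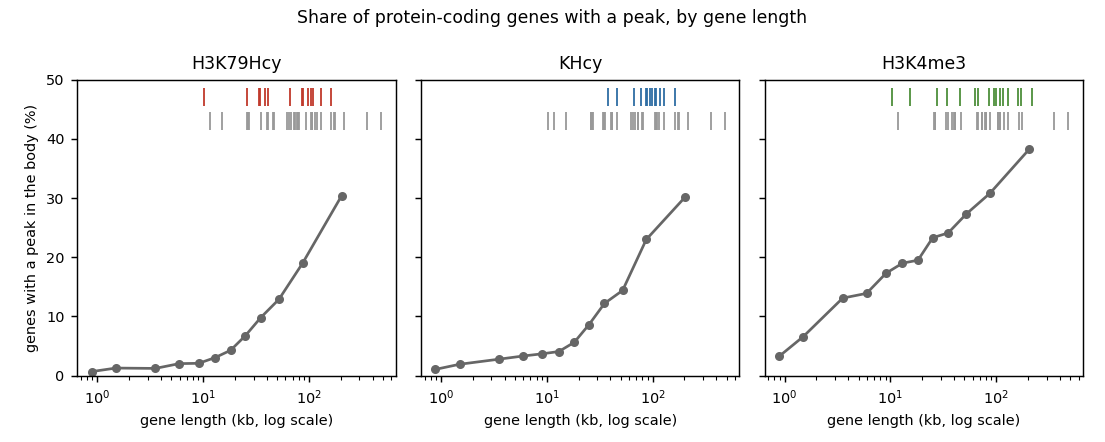
Percent of all protein-coding genes with a peak in the body in 12 groups of equal number by gene length, plotted at the median length of each group (kb, log scale), with the listed genes marked above as ticks by length (upper row with a peak, coloured, and lower row without, grey). The share rises from 0.697% to 30.4% for H3K79Hcy, and the longest listed genes, Hdac9 and Arid1b, are in the row without.

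The chromosomal stretch separated the listed genes more clearly. Each gene was placed in the fixed 5 Mb stretch that holds its middle, which gave 42 stretches, since Smarca4 and Dnmt1, Smarcc1 and Setd2, Smarcd1 and Arid2, and Sirt1 and Tet1 share one. Stretches of the 14 genes with H3K79Hcy held a median of 27 KHcy and 69.5 H3K4me3 peaks, while those of the 32 genes without held 3 and 13. For H3K79Hcy the medians were 23 and 7, a difference to which the peaks of the genes themselves contribute. Nsd1 was the exception among the 14, with 1 H3K79Hcy, 0 KHcy and 6 H3K4me3 peaks in its stretch. Conversely, Tet2, Hdac4 and Sirt1 held no H3K79Hcy peak in the body in spite of 33, 41 and 30 such peaks around them. Several genes without any peak lay in nearly empty stretches, such as Eed (0, 0 and 0 peaks), Hdac9 (0, 0 and 1) and Tet3 (2, 0 and 1).

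**Figure D5:**
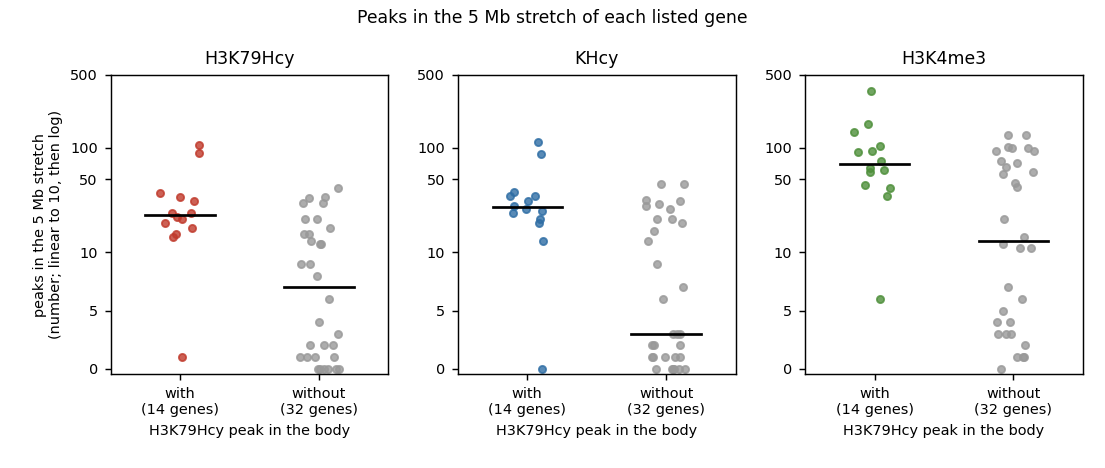
Number of H3K79Hcy, KHcy and H3K4me3 peaks in the 5 Mb stretch of each listed gene (axis linear to 10, then logarithmic), for the 14 genes with an H3K79Hcy peak in the body and the 32 without, with 1 point per gene and a bar at the median. The medians are 23 and 7, 27 and 3, and 69.5 and 13, and the groups overlap in each panel.

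Relative to the density of their own stretches, the bodies of the listed genes were richer in both homocysteinylation marks and poorer in H3K4me3. If the peaks of each stretch were spread evenly, the bodies would have been touched by 12.8 H3K79Hcy, 13.8 KHcy and 37.9 H3K4me3 peaks, against 26, 35 and 19 found. This comparison sets genes against all DNA of the stretch, including the space between genes. When each gene was instead set beside the other genes of 0.5 to 2 times its length in the same stretch, the expected number of genes with a peak was 6.86 for H3K79Hcy (14 found), 8.24 for KHcy (13 found) and 17.0 for H3K4me3 (16 found). Of all 2606 other genes in these stretches, 8.29%, 11.1% and 25.2% held a peak of the 3 lists. Cecr2 weighed on the peak counts, which without it were 21 for H3K79Hcy and 26 for KHcy, while the expected counts above include it. The list also holds Smarca4 and Dnmt3b, which like Cecr2 had to hold H3K79Hcy peaks, and it was chosen with results known. These comparisons were not tested.

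The peaks of different lists rarely coincided, in the listed genes as over all gene bodies. Of the 26 H3K79Hcy peaks, 2 (7.69%) overlapped a KHcy peak, in Cecr2 and Ep300, compared with 13.9% over all gene bodies. With H3K4me3 1 of the 26 overlapped (3.85%), compared with 12.6%, and no KHcy peak of these bodies overlapped H3K4me3, compared with 14.4%. The overlaps in the listed genes are few, and their differences from all bodies were not tested. At the level of genes, 8 of the 14 with H3K79Hcy also held KHcy (57.1%), which is 61.5% of the 13 with KHcy. Over all genes the same shares were 53.3% and 44.9%.

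The peaks of the listed genes were ordinary in strength. Their median fold was 2.70 for H3K79Hcy (1.96 to 4.71), 2.22 for KHcy (1.84 to 2.61) and 2.90 for H3K4me3 (1.78 to 3.50), compared with 2.67, 2.24 and 2.59 over all gene bodies. The stricter score was passed by 5 of the 26 H3K79Hcy peaks (19.2%, against 30.1% over all bodies), by 16 of 35 KHcy peaks (45.7%, against 41.1%) and by 12 of 19 H3K4me3 peaks (63.2%, against 59.4%). Those 5 H3K79Hcy peaks lay in Cecr2, Bptf, Ep300, Setd2 and Setdb1, and that of Smarca4 and that of Dnmt3b were not among them. Base composition was also close to that of other genes, with a median GC content of 41.8%, 41.4% and 47%, against 41.3%, 41.9% and 46.6% over all bodies. Exact repeats were few in the peaks within the bodies. At most 11% (H3K79Hcy), 10% (KHcy) and 15.8% (H3K4me3) of the 31-base words of a peak were found more than once in the genome. Of the 667 other H3K79Hcy peaks in the stretches, 40 had over 20%, a share at which few or none of 26 peaks would. Only exact matches were counted, so diverged copies of repeated sequence in these peaks are not excluded.

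A further 130 genes of the same functions, listed by role for comparison, were set beside their length in the same way. H3K79Hcy was found in 19 of them (14.6%), and genes of similar length gave a count of 14.6 (1.31 times). KHcy was found in 25 (19.2%) against 17.0 (1.47 times), and H3K4me3 in 36 (27.7%) against 32.3 (1.11 times). Their median length was 36.7 kb. By role, H3K79Hcy was found in 4 of 14 further demethylases, 3 of 9 other chromatin factors, 3 of 7 ISWI-related genes and 2 of 19 lysine methyltransferases, and in 0 of 13 deacetylases and 0 of 13 CHD genes. The length of the genes gave 2.30 for the 14 demethylases, 1.41 for the 7 ISWI-related genes and 2.43 for the 19 methyltransferases. It gave 0.878 for the 13 deacetylases and 1.44 for the 13 CHD genes. For the 9 other chromatin factors it gave fewer than the 3 found. These counts by role are small, and the differences were not tested. KHcy was found in 1 of the 16 further SWI/SNF genes, where length gave 1.64, unlike in the 7 listed ones. In the 19 further methyltransferases it was found in 7, where length gave 2.81. At least 2 H3K79Hcy peaks were found in Ash1l, Baz2b, Ep400, Jmjd1c, Kdm2a, Kdm5a, Mtf2, Smc3, Stag1 and Whsc1. Kdm5a, which demethylates H3 lysine 4, held 9 and lies near Cecr2 on chromosome 6.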

How the data were processed

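The 3 libraries, 1 per antibody, were assigned by the antibody that the labels name. The lists held 7387 H3K79Hcy, 7300 KHcy and 19339 H3K4me3 peaks. The paper reports other numbers, far lower for H3K4me3, and its number for H3K79Hcy is nearest to that of the KHcy list. The reason for these differences is not known. The authors mapped reads on mm9 by Bowtie 2, and peaks were called by MACS (1.4.2 in the submitters' processing notes) after filtering through input, as the methods state. A legend of the study names SICER, and the lists, whose peaks all span whole windows of 200 bp, do not name the caller. They hold no input values, and the fold above uses 1 background rate per library, so it is not corrected for input. The authors deposited for each peak its position, its width, the count of reads (not normalized) and a score of the peak caller. The fold and false discovery rate that had been planned for are not among their columns. Depth is known only from the background and from the reads in peaks, which numbered 209335 (H3K79Hcy), 276864 (KHcy) and 787308 (H3K4me3).

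The background was solved from peaks of 1 window (27, 8 and 14 peaks), whose score is minus the natural log of the Poisson probability of their reads. Positions are in mm9, counted from 1. Genes came from GENCODE M1 (nuclear chromosomes, and the longest entry for Hdac4), sequences from the NCBIM37 genome of the same build, and an overlap of 1 bp counted. The members and the lists of genes were chosen with earlier results of these data known. Named were Cecr2, Smarca4 and Dnmt3b, every listed gene with an H3K79Hcy peak, the 5 with most KHcy and the 5 with most H3K4me3 peaks, those whose start lay in an H3K4me3 peak, the rest by their counts, and of the 130 further genes those with at least 2 H3K79Hcy peaks. Counts expected from length are sums of the shares of similar genes with a peak, and those expected from a stretch are its peaks per base times gene length plus mean peak width. Functions were tested on simulated data. Python 3.11.15, numpy 2.4.6, scipy 1.17.1, pandas 2.3.3 and matplotlib 3.10.9 were used.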

Additional observations from a re-analysis of the deposited data

How the results depend on the processing

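Of 56 values recomputed under alternatives, 44 stayed within 1.5 times the count, or within the counting interval of the ratio, reported above. With the stricter score, genes with a peak in the body fell to 5 for H3K79Hcy, 8 for KHcy and 10 for H3K4me3, those with a peak within 10 kb to 5 for H3K79Hcy and 9 for KHcy, and peaks in bodies to 5, 16 and 12, because fewer peaks were kept. With each list limited to its 7300 strongest peaks by fold, H3K4me3 was found in 9 bodies and in 12 genes within 10 kb. Starts of any transcript lay inside an H3K4me3 peak in 4 genes, and 10 genes had such a peak within 1000 bp of the start. The ratio to genes of similar length ran from 1.53 to 1.85 for H3K79Hcy, from 1.23 to 1.85 for KHcy and from 1.09 to 1.39 for H3K4me3, and it was lowest for H3K79Hcy and KHcy without Cecr2, Smarca4 and Dnmt3b, an alternative chosen after seeing the data. No paired analysis was possible because there is 1 library per antibody. Values cannot be separated from chance differences between libraries, since none has a replicate, and the shallow peaks, of 15 to 36 reads for H3K79Hcy, leave wide counting intervals.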
